A study of Ovis aries with 16 samples.

Results

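The hypoxia by ketamine interaction asks whether the ketamine difference in fetal hypothalamic gene expression was the same in hypoxic and in normoxic fetuses. It was computed over all 16 of the 16 samples of the series, with no sample left out, as (HK - HC) - (NK - NC) on the log2 scale. The 4 groups were NC, 3 normoxic fetuses without the drug, NK, 4 normoxic fetuses with ketamine, HC, 5 hypoxic fetuses without the drug, and HK, 4 hypoxic fetuses with ketamine. All were late-gestation Suffolk sheep fetuses that carried chronic catheters, each on an array of its own. The fetuses of NK and HK were given ketamine into a vein before the stimulus, and those of NC and HC were given saline. The stimulus lasted 30 min, during which the ewe breathed either normal air or, in HC and HK, gas low in oxygen, and every hypothalamus was taken 24 h after its onset. Most fetuses were twins but littermates are not named in the labels, so relatedness between fetuses could not be modelled, and p-values measure the spread between these fetuses only. The paper assigned normoxia or hypoxia at random by pregnancy, so any littermates here would share that arm. The fit counts each fetus as separate.

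Ketamine, an anesthetic, acts by blocking the channel of the N-methyl-D-aspartate (NMDA) receptor, which is opened by the excitatory transmitter glutamate. Lack of oxygen releases glutamate in the brain, and injured cells release molecules that Toll-like receptors on microglia and endothelium detect, which leads through NF-kappaB to cytokines, chemokines and prostaglandin synthesis. A negative interaction means that HK lay lower than the sum of the separate hypoxia and ketamine differences would place it. A high HC, a low HK, a high NK or a low NC can each give this. A positive interaction means that HK lay higher than that sum. Levels are log2 signals from which the 75th percentile of the array was subtracted, so a level of -4 is a dim probe and a level of 4 a bright one, and an interaction of 1 is a doubling of a ratio. Group means are given ± SD over 3 NC, 4 NK, 5 HC and 4 HK arrays, and fitted differences ± SE.

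Arrays were alike in brightness, with 75th percentiles between 1238 and 1596 intensity units and between 71.8% and 80.6% of probes well above background. Correlations between arrays over tested probes ran from 0.9564 to 0.987. The 5 HC arrays scattered most around the fit (residual SD 0.398 to 0.444) and the 3 NC arrays least (0.284 to 0.302), while limma used a common spread for the 4 groups. The hypothalamic neuropeptides OXT, POMC, SST and TAC1 and the astrocyte genes GFAP and AQP4 were well above background on all 16 arrays. So was LHB, a gonadotropin gene of the anterior pituitary, at a mean between 2.65 (NC) and 2.92 (HK). Microglia, T-cell and other genes below come from bulk tissue, in which fewer cells of a type and less RNA per cell cannot be told apart.

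Over the 12250 tested probes, 510 (4.16%) had an interaction p under 0.05 in limma's unadjusted test, against 5% by chance. None (0%) passed after Benjamini-Hochberg adjustment, the smallest adjusted p being 0.966 and the smallest unadjusted p 0.00028. With slide 2 alone 1 probe passed adjustment, and with every other setting tried 0 did. The calls were 155 positive (1.27% of tested probes) and 355 negative (2.9%). This split depended on the scaling. Positive calls made up 30.39% of all calls here, against 56.99% after quantile normalization, 57.56% after normexp and 64.12% for the deposited log2 values. The setting called normexp is a background correction with an added offset of 50 intensity units, followed by quantile normalization. It thus shares a step with the quantile setting. The negative calls were dim, with a median level of -3.25 against -1.55 for all tested probes and -0.29 for the positive calls. In 48 of the 355 negative calls, and in 1 positive call, some group had no array well above background. The half-width of the 95% interval had a median of 0.49 log2 units over the tested probes and was under 1 for 80.55% of them.

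**Figure D1:**
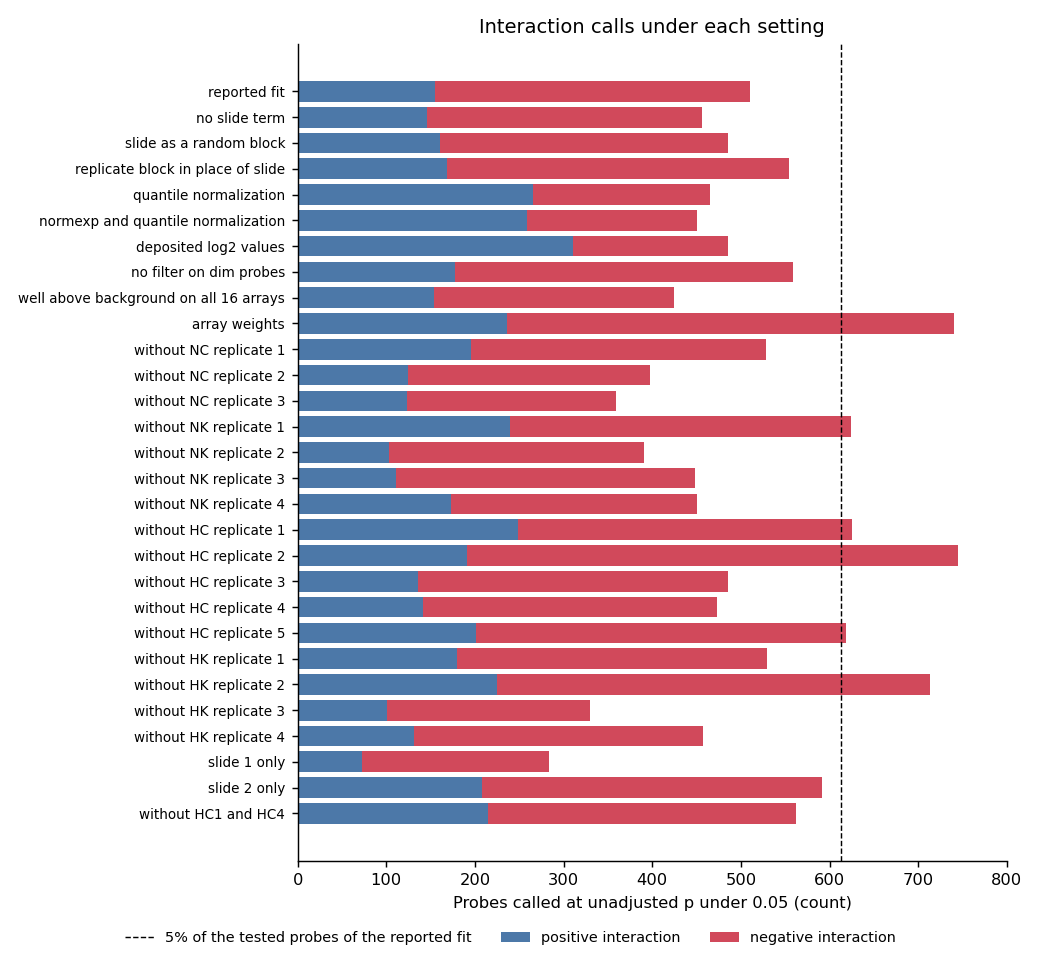
Number of probes with an unadjusted interaction p under 0.05 (x axis, count), split into positive (blue) and negative (red) interactions, in the reported fit and under each alternative (y axis). The dashed line is 5% of the 12250 tested probes, and the positive share is largest for the 3 settings with quantile normalization or the deposited values.

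The group means of the called probes took 2 main shapes in each direction. Among the 355 negative calls, the group farthest from the mean of the others was a low HK in 152 (42.82%) and a high HC in 107 (30.14%), then a high NK in 49 and a low NC in 47. Over all 6034 tested probes with a negative interaction, the same shares were 28.17% for a low HK and 21.43% for a high HC. Among the 155 positive calls it was a high HK in 64 (41.29%) and a low HC in 61 (39.35%). The shares over the 6216 tested probes with a positive interaction were 30.28% and 33.11%. These shapes follow in part from the choice of probes by the same contrast and are given as a description. Only 67 of the called probes carried a gene name, for 59 genes, of which 15 were positive and 44 negative, out of 875 named genes tested. The other 443 called probes had no name.

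The genes described with a positive interaction are 10 of the 12 named genes of smallest p, namely EDNRA, CTSD, SLC25A26, ME1, SLC25A11, RPA1, SLC25A4, FBXO32, PPCS and CYGB, and each was called at the unadjusted threshold with an adjusted p of 0.966. SLC25A4, SLC25A11 and SLC25A26 are carriers of the inner mitochondrial membrane for ADP and ATP, for oxoglutarate and malate, and for S-adenosylmethionine. In all 10 the fitted HC level lay below NC and the fitted HK level above NK, a shape that choice by this contrast favours. Of the 155 positive calls, HC minus NC was above 0 in 7 and HK minus NK in 147. Over the 6216 tested probes with a positive interaction the shares above 0 were 24.68% and 66.14%. The interactions were small, from 0.26 for CTSD to 0.83 for FBXO32.

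EDNRA, the endothelin A receptor of vascular smooth muscle, read -0.54, -0.53 and -0.11 in NC, -0.38, -0.74, -0.43 and -0.18 in NK, -0.70, -0.56, -0.57, -0.69 and -0.25 in HC, and -0.49, -0.47, 0.25 and 0.04 in HK. All groups overlapped, and the higher HK values were those of HK3 and HK4, both on slide 2. The interaction of 0.52 ± 0.19 (SE) was 0.17 on slide 1 and 0.85 on slide 2, its call was lost without NC3 (0.48), with no slide term (0.43) and with slide as a random block (0.46), and a second, much dimmer EDNRA probe gave 0.04 ± 0.27. CTSD, the lysosomal protease cathepsin D, read 2.56, 2.54 and 2.59 in NC, 2.47, 2.42, 2.51 and 2.53 in NK, 2.53, 2.34, 2.47, 2.52 and 2.52 in HC, and 2.66, 2.54, 2.59 and 2.76 in HK. NC lay above every NK and every HC array, and so did HK, but by narrow gaps: HK2 read 2.535 and HC1 2.533. HK overlapped NC. The CTSD interaction was 0.26 ± 0.10 (SE) on 1 probe and 0.13 ± 0.11, with no call, on a probe that shares 59 of its 60 bases, and it was called neither with normexp nor with the deposited values. SLC25A26 read -2.06, -1.74 and -1.95 in NC, -1.94, -2.09, -2.01 and -2.02 in NK, -2.12, -2.06, -1.997, -2.02 and -2.02 in HC, and -1.57, -1.90, -1.802 and -1.91 in HK. HK was above every NK and every HC array and overlapped NC, with an interaction of 0.34 that was not called without NC2 or NK2 (0.26 to 0.31).

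ME1, the cytosolic malic enzyme, read -1.08, -1.005 and -1.18 in NC, -1.21, -1.36, -1.23 and -1.25 in NK, -1.44, -1.34, -1.54, -1.52 and -1.12 in HC, and -1.22, -1.17, -1.06 and -1.33 in HK. NC was above NK, and HC5 was the only HC array above every NK array. The fitted difference after hypoxia was -0.30 ± 0.10 (SE) without ketamine and 0.07 ± 0.10 with it, and the interaction was 0.37 ± 0.14.

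Of the other 6 positive genes, FBXO32 had the largest interaction, at 0.83 ± 0.35 (SE). FBXO32, a muscle and brain ubiquitin ligase subunit also called atrogin-1, had a mean of 1.22 ± 0.13 (NC), 0.63 ± 0.51 (NK), 0.35 ± 0.36 (HC) and 0.69 ± 0.51 (HK). Its NC arrays were above all HC arrays. The fitted HC minus NC difference was -0.76 ± 0.26 (SE) and the HK minus NK difference 0.07 ± 0.24.

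CYGB, an oxygen-binding globin, was level in NC, NK and HC, at -2.85, -2.86 and -2.88, and higher in HK, at -2.48 ± 0.26 (SD, n = 4). HK overlapped NC, as NC1 read -2.686 and HK4 -2.770. HK was above every NK and every HC array, but HK4 only just above HC5 (-2.772). PPCS, an enzyme of coenzyme A synthesis, had an interaction of 0.32 ± 0.14 (SE) and SLC25A4 0.34 ± 0.14. SLC25A11 gave 0.27 ± 0.11, and RPA1, a subunit of the single-strand DNA-binding replication protein, gave 0.41 ± 0.17 with the NK2 spot left out as an outlier. Leaving out 1 array ended the call of each: ME1 without NC2, NK2 or HK3 (0.31 to 0.33), SLC25A11 without NC3, NK2, NK3, HK1 or HK3 (0.23 to 0.25) and CYGB without NC1, NK1, NK3, HC1, HK1 or HK3 (0.30 to 0.39). The RPA1 call was lost without NC1, NC3, NK3, HC1, HK1 or HK4 (0.35 to 0.39), that of FBXO32 without NC2, NC3, NK2, NK3, NK4, HK1 or HK2 (0.62 to 0.84), that of SLC25A4 without NC2, NC3, NK2, NK3, HC2, HC3, HC4 or HK3 (0.28 to 0.33) and that of PPCS without NC1, NC3, NK2, NK3, HC2, HC3, HK1 or HK4 (0.28 to 0.31). ME1 and FBXO32 were also not called with normexp or the deposited values, SLC25A4 was called under no other scaling, and SLC25A11 was not called without a slide term. RPA1 was 0.24 with normexp and 0.17 with the deposited values.

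The 12 named genes of smallest p with a negative interaction were C5aR, COL4A3, FGF2, NTN4, IL13RA1, CREM, COL2A1, ETS2, IL18, DCN, EIF4GI and IGFR1, each with an adjusted p of 0.966. They ran from -0.53 for IGFR1 to -1.17 for COL4A3. Of these calls, only that of COL2A1 was lost when an array was left out, and IL13RA1 was the only 1 not called with normexp or the deposited values. Among the 12, IGFR1 alone was not called with quantile normalization. The group mean farthest from the others was a low HK in 6 of the 12, a high HC in 5 and a high NK in 1. The genes high in HC are described first, a sorting made after the values were seen. In dim genes of this set the size depended on the scaling, as given beside each.

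**Figure D2:**
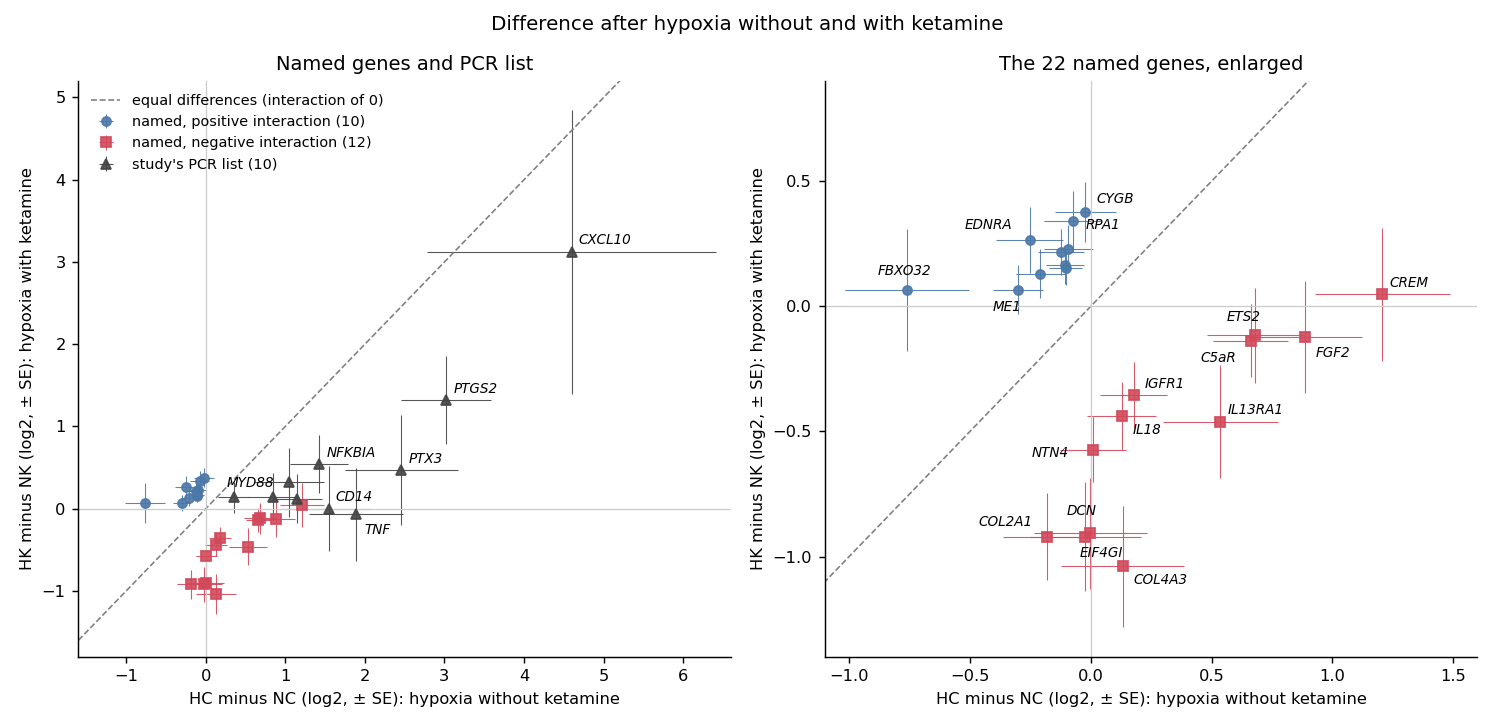
Fitted log2 difference after hypoxia without ketamine (x axis, HC minus NC) and with ketamine (y axis, HK minus NK), with SE bars, for 22 named genes and the 10 PCR-measured genes (left), and for the 22 named genes enlarged (right). Distance below the dashed line of equal differences is a negative interaction: CREM at 1.21 and 0.05 lies far to the right, COL4A3 at 0.13 and -1.04 lies far down.

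C5aR, FGF2, CREM, ETS2 and IL13RA1 stood high in HC. C5aR is the receptor for the complement fragment C5a, a chemoattractant of microglia and neutrophils. Its probe A_70_P041822 read -1.11, -1.15 and -1.03 in NC, -1.14, -0.79, -0.98 and -0.74 in NK, -0.52, -0.06, -0.36, -0.54 and -0.75 in HC, and -1.28, -0.80, -1.09 and -1.02 in HK. Every HC array was above every NC and every HK array, and HC5 overlapped NK. The hypoxia difference was 0.66 ± 0.15 (SE) without ketamine and -0.14 ± 0.15 with it, an interaction of -0.80 ± 0.21 with a 95% interval from -1.26 to -0.34. The second C5aR probe gave -0.76 ± 0.23, but it shares 59 of 60 bases and is not a separate measure.

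FGF2, basic fibroblast growth factor, is made by astrocytes and acts on neurons, glia and vessels. It read -0.86, -0.96 and -0.94 in NC, -0.80, -0.69, -0.59 and -0.53 in NK, 0.38, -0.53, 0.21, 0.19 and -0.46 in HC, and -0.26, -0.97, -1.18 and -0.69 in HK. HC was above NC and NK, though HC2 and HC5 only just above NK, and HK1 fell among the HC arrays. The hypoxia difference of 0.89 ± 0.24 (SE) without ketamine was -0.12 ± 0.22 with it, and the interaction was -1.01 ± 0.33, equal to a 2.01-fold smaller ratio. A second FGF2 probe gave -0.93 ± 0.33 and was called. The array probes are 60 bases long, and these share 40, in capitals, and are shown because both were called.
FGF2 A_70_P039492: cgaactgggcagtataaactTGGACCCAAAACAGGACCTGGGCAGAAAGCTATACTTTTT
FGF2 A_70_P039491: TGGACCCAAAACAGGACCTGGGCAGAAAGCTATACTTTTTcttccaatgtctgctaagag

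CREM is a transcription factor that answers to cyclic AMP and includes repressor forms. It had a mean of -4.61 ± 0.23 (NC), -4.25 ± 0.15 (NK), -3.40 ± 0.61 (HC) and -4.20 ± 0.18 (HK). The hypoxia difference was 1.21 ± 0.28 (SE) without and 0.05 ± 0.27 with ketamine, and the interaction was -1.16 ± 0.38, but -0.56 with normexp and -0.44 with the deposited values. A dimmer CREM probe gave -0.66 ± 0.42 and was not called. The CREM probes, shown because the dimmer was not called, share 14 bases, in capitals.
CREM A_70_P012577: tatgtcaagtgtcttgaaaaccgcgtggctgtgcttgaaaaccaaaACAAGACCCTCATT
CREM A_70_P012576: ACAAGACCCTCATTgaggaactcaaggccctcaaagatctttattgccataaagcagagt

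ETS2, a transcription factor of the ETS family, had a mean of -0.11 ± 0.18 (NC), 0.14 ± 0.19 (NK), 0.64 ± 0.44 (HC) and 0.02 ± 0.27 (HK). Its hypoxia difference was 0.68 ± 0.20 (SE) without ketamine and -0.11 ± 0.19 with it. HC4 was the highest array for CREM and for ETS2, at -2.52 and 1.32. IL13RA1, a receptor chain for interleukins 4 and 13, had a mean of -4.13 ± 0.32 (NC), -3.99 ± 0.33 (NK), -3.57 ± 0.39 (HC) and -4.45 ± 0.21 (HK), and all HC arrays were above all HK arrays. Its interaction of -0.997 ± 0.33 (SE) was -0.39 with normexp and -0.32 with the deposited values and was called in neither.

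COL4A3, NTN4, COL2A1, EIF4GI, IL18 and IGFR1 stood low in HK. COL4A3 encodes a chain of basement membrane collagen, COL2A1 the fibrillar collagen of cartilage and NTN4 the basement membrane protein netrin 4. COL4A3 read -4.51, -4.63 and -4.71 in NC, -4.33, -4.15, -4.49 and -4.24 in NK, -4.12, -5.18, -4.21, -4.78 and -4.21 in HC, and -5.68, -4.74, -5.48 and -5.46 in HK, where it was well above background on 3 of 4 arrays. NK was above every NC array, HK was below every NK and every NC array, and HC spanned most of the range. The hypoxia difference was 0.13 ± 0.25 (SE) without ketamine and -1.04 ± 0.24 with it, and the interaction of -1.17 ± 0.35 was -0.38 with normexp and -0.23 with the deposited values, still called in each. Its probe, the only tested 1 for this gene, is shown for that reason.
COL4A3 A_70_P016881: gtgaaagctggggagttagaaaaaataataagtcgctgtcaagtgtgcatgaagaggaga

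NTN4 read -0.90, -1.16 and -1.18 in NC, -0.71, -0.95, -0.80 and -0.88 in NK, -0.95, -1.31, -1.16, -1.19 and -0.78 in HC, and -1.56, -1.19, -1.58 and -1.31 in HK. HK was below every NK and every NC array and overlapped HC. The interaction was -0.58 ± 0.19 (SE) and -0.53 ± 0.18 on a second probe that shares 12 bases. COL2A1 had a mean of -0.96 ± 0.14 (NC), -0.62 ± 0.09 (NK), -1.12 ± 0.34 (HC) and -1.54 ± 0.26 (HK). The 4 NK arrays were above all arrays of the other groups, and the interaction of -0.74 ± 0.25 (SE) was no longer called without NC3 (-0.61). DCN, the matrix proteoglycan decorin, was the gene that stood high in NK. It had a mean of 1.94 ± 0.34 (NC), 2.49 ± 0.30 (NK), 1.92 ± 0.38 (HC) and 1.57 ± 0.17 (HK), with an interaction of -0.90 ± 0.32 (SE). A second DCN probe with no shared stretch gave -0.61 ± 0.34 and was not called. EIF4GI, a scaffold of translation initiation, was level at -2.82, -2.77 and -2.86 in NC, NK and HC and stood at -3.67 ± 0.53 in HK (SD, n = 4). Its interaction of -0.91 ± 0.32 (SE) was -0.46 with normexp and -0.36 with the deposited values.

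IL18, a cytokine released by inflammasomes, had a mean of -2.80 ± 0.12 (NC), -2.72 ± 0.28 (NK), -2.69 ± 0.17 (HC) and -3.16 ± 0.10 (HK). HK was below every NK and every HC array. The IL18 interaction was -0.57 ± 0.20 (SE) and -0.54 ± 0.26, not called, on a second probe sharing 20 bases. With normexp it was -0.34 and with the deposited values -0.26. IGFR1, so named on the array, gave -0.53 ± 0.19, which was -0.32 with normexp and -0.26 with the deposited values. A brighter probe under the similar name IGF1R gave -0.07 ± 0.19 (SE) and was not called. Whether both names stand for the same gene was not tested.

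**Figure D3:**
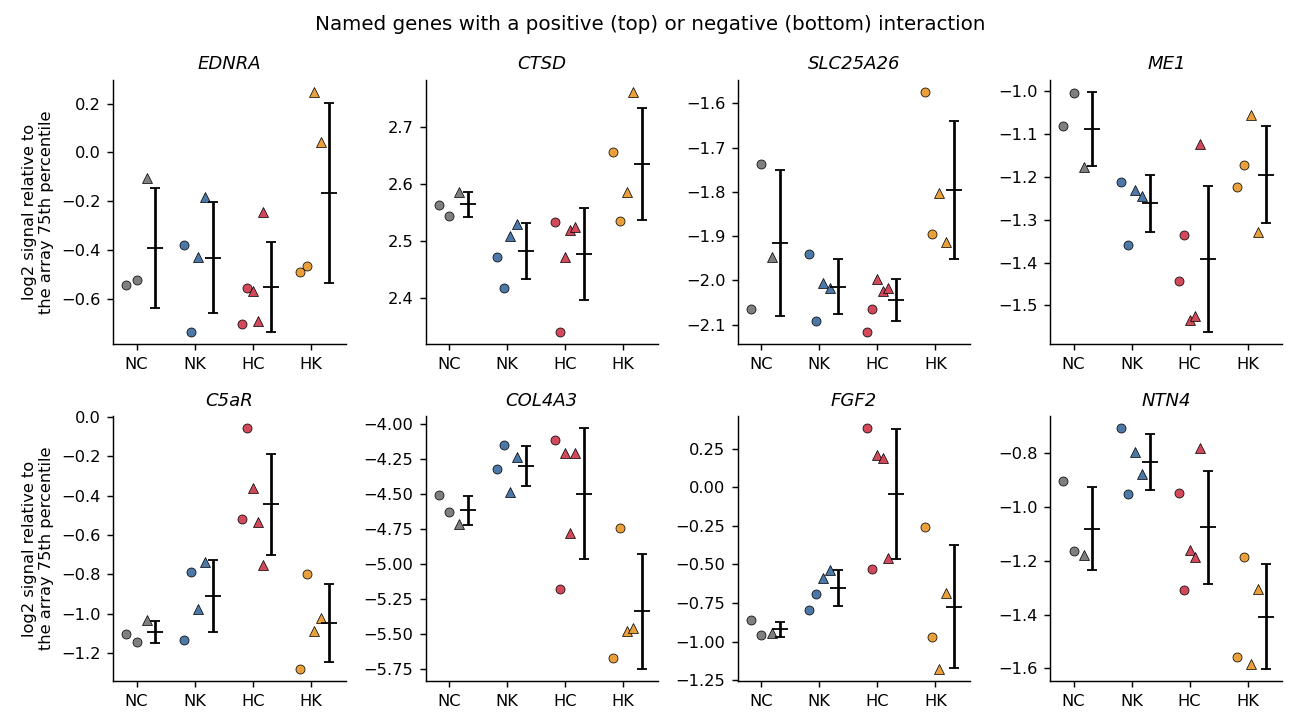
Level (y axis, log2 signal minus the array's 75th percentile) in every array of the 4 groups (x axis) for 4 named genes with a positive (top) and 4 with a negative (bottom) interaction. Circles are slide 1 and triangles slide 2, bars show the group mean ± SD. In the top row the mean of HC lies below NC and that of HK above NK, HC is high for C5aR and FGF2, and HK is low for COL4A3 and NTN4.

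A list of genes was also followed by PCR in this study. Of its 14 genes, 10 had a tested probe on the array. Since they were chosen on these samples, they are not independent evidence of a direction. Most belong to the Toll-like receptor pathway and its products, and each was represented by its brightest probe. All 10 had a negative interaction, with a median of -1.25 log2 units against 0.004 for all 12250 tested probes, of which 49.3% were negative. The list median was -0.81 with normexp and -0.71 with the deposited values, and it was -0.76 without HC4 and -0.79 without HK3. TNF, PTGS2 and TLR2 were called, 3 of 10 genes, against 2.9% of tested probes called negative, and none passed adjustment (adjusted p = 0.966 for each). The count depended on single arrays and on scaling. It was 6 without HC5, 0 without HC2 or HK3, 1 without NC1, NC2, NK1, NK3, NK4 or HK4, 1 with no slide term, 1 with quantile normalization, and 0 with normexp or the deposited values.

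TNF, the cytokine tumor necrosis factor, read -4.63, -5.09 and -5.37 in NC, -4.69, -4.61, -4.57 and -5.65 in NK, -3.96, -2.12, -3.80, -2.30 and -4.45 in HC, and -5.55, -3.17, -5.66 and -5.43 in HK, where 3 of 4 arrays were well above background. Every HC array was above every NC array, while HK2 fell inside the HC range and the other HK arrays lay at the low end of the normoxic range. The hypoxia difference was 1.89 ± 0.59 (SE) without ketamine and -0.07 ± 0.56 with it, and the interaction was -1.96 ± 0.82. Its call was lost without NC2, NC3, NK3, HC2, HK1, HK3 or HK4 (-2.02 to -1.67), and the interaction was -0.81 with normexp and -0.61 with the deposited values, called under no other scaling and not without a slide term.

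PTGS2, the inducible cyclooxygenase of prostaglandin synthesis, read -2.32, -2.47 and -2.25 in NC, -1.64, -1.997, -2.13 and -1.64 in NK, 0.65, 0.53, 0.08, 2.34 and -0.54 in HC, and -0.65, 0.62, -1.72 and -0.37 in HK. Every HC array was above every normoxic array, NK was above NC, and HK spread from the NK into the HC range. The hypoxia difference was 3.02 ± 0.57 (SE) without and 1.32 ± 0.54 with ketamine, and the interaction was -1.70 ± 0.78. A PTGS2 probe near background gave 0.02 ± 1.12. The call was lost without NC1, NC2, NC3, NK1, NK2, NK3, NK4, HC1, HC2, HK1, HK3 or HK4 (-1.88 to -1.26), with no slide term and under each other scaling.

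TLR2, a receptor for bacterial lipoproteins and molecules of injured cells, read -4.30, -4.003 and -3.79 in NC, -3.82, -3.90, -3.99 and -3.55 in NK, -2.91, -2.75, -3.06, -1.997 and -3.63 in HC, and -3.77, -3.56, -4.23 and -3.21 in HK. HC was above NC in every array, and HC5 lay among the NK and HK arrays. The interaction was -1.02 ± 0.43 (SE), and it was not called without NC1, NK1, NK4, HC2 or HK3 (-1.02 to -0.79). It was -0.52 with normexp and -0.42 with the deposited values, not called in either. A second TLR2 probe, which shares no stretch with the first, gave -0.94 ± 0.47 with no call. They are shown as separate measures of TLR2.
TLR2 A_70_P050916: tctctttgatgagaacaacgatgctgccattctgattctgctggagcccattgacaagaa
TLR2 A_70_P050917: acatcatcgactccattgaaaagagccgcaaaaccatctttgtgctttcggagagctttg

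The other 7 genes of the list were not called in the reported fit. PTX3, the long pentraxin, had a mean of -4.28 ± 0.30 (NC), -3.79 ± 0.67 (NK), -1.98 ± 1.59 (HC) and -3.32 ± 0.62 (HK), and its interaction of -1.99 ± 0.98 (SE) had a 95% interval from -4.10 to 0.12. CD14, the co-receptor for lipopolysaccharide, stood near -2.84 in NC, NK and HK and at -1.49 ± 1.21 in HC (SD), where HC5 read -3.46. Its interaction was -1.54 ± 0.76 (SE). NFKBIA, the inhibitor of NF-kappaB, averaged 0.66, 0.74, 2.03 and 1.28 in NC, NK, HC and HK, with an interaction of -0.88 ± 0.51 (SE). TLR4, the lipopolysaccharide receptor, gave -0.70 ± 0.42, the cytokine gene IL1B -0.73 ± 0.60 and the adaptor gene MYD88 -0.21 ± 0.27. A second, dimmer MYD88 probe, with no shared stretch, gave -0.99 ± 0.61 and was not called. For the interferon-induced chemokine CXCL10 the interaction of -1.47 ± 2.50 had a 95% interval from -6.89 to 3.94. Its HC arrays ran from -1.49 to 5.56 and its HK arrays from -3.97 to 3.602.

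**Figure D4:**
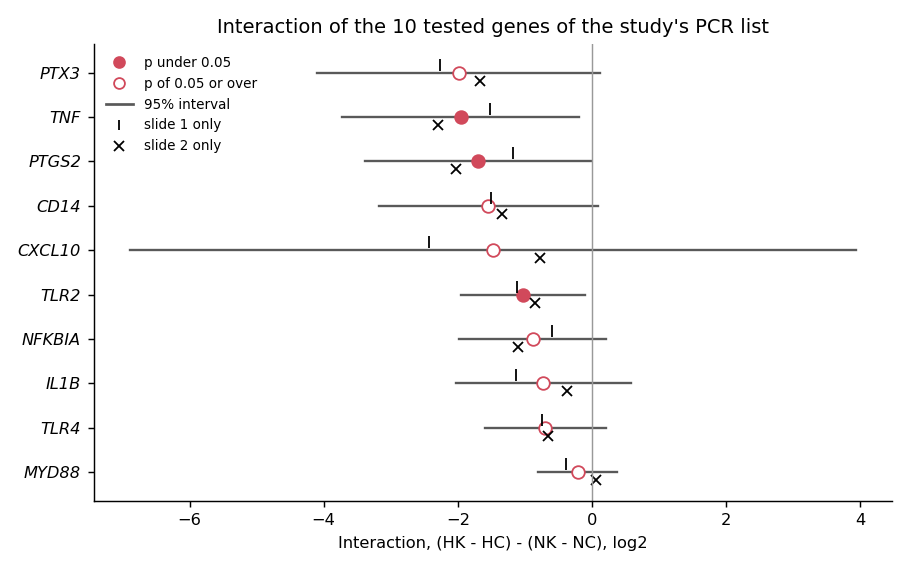
Fitted interaction (x axis, log2) of the 10 tested PCR-measured genes (y axis), with 95% intervals and the values within slide 1 and slide 2. All points lie below 0, the intervals of TNF, PTGS2 and TLR2 end below 0, and MYD88 is the gene whose slide 2 value (0.06) lies above 0.

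Other gene lists were counted in the same way, with lists sharing genes. Among 875 named genes, each by its brightest probe, 54.5% had a negative interaction, 5.94% were called and the median was -0.04. In the Toll-like receptor pathway 11 of 12 genes were negative at a median of -0.59, TLR2 being the called gene. The interferon response genes were negative in 9 of 10 with a median of -0.45, and 0 were called. Of 19 cytokines and chemokines 15 were negative with a median of -0.24, and TNF and IL18 were called. Of 8 cytokine and chemoattractant receptors 6 were negative with a median of -0.52, C5aR and IL13RA1 being called. Collagen and matrix genes were negative in 9 of 13 with a median of -0.28. Besides COL4A3, DCN and COL2A1, the fourth called was TIMP3, an inhibitor of metalloproteinases, at -0.53 ± 0.21 (SE), a call lost without NC2, HC2 or HK3 (-0.49 to -0.44) and with normexp.

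Among 8 prostaglandin genes, PTGS2 and PTGER4, a receptor for prostaglandin E2, were called. PTGER4 was well above background on 2 of 4 HK arrays and all arrays of the other groups but 1, and its interaction was -1.79 ± 0.75 (SE). A second PTGER4 probe that shares 59 of 60 bases gave -0.19 with no call. The call was lost without NC1, NC2, NK4 or HK3 (-1.71 to -1.16), with no slide term (-1.55), with slide as a random block (-1.63) and with the deposited values (-0.26), and the interaction was -0.45 with normexp. In the cell death and oxidative stress list 2 of 7 genes, BCL2 and NOS2, were called, both as negative, and the list median was 0.01. BCL2, which opposes apoptosis, had a mean of 1.39 ± 0.11 (NC), 1.497 ± 0.10 (NK), 1.85 ± 0.25 (HC) and 1.34 ± 0.34 (HK). Its interaction was -0.62 ± 0.24 (SE), lost without NC2, NC3 or HK3 (-0.61 to -0.51), and -0.57 on a probe sharing 58 of 60 bases. NOS2, the inducible nitric oxide synthase, had -0.89 ± 0.34, lost without NC3 (-0.77) and under each other scaling (-0.61 to -0.08), and -0.12 on a second probe sharing 40 bases.

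Among 9 genes of the hypoxia-inducible factor list, 7 were negative, with a median of -0.18. CYGB was called as positive and SLC2A3, the neuronal glucose transporter, as negative. SLC2A3 had a mean of 3.32 ± 0.18 (NC), 3.37 ± 0.04 (NK), 4.38 ± 0.49 (HC) and 3.83 ± 0.19 (HK). Every hypoxic array was above every normoxic array, and the hypoxia difference was 1.12 ± 0.21 (SE) without and 0.46 ± 0.20 with ketamine. The interaction of -0.65 ± 0.29 was lost without NC1, NC2, NK3, NK4, HC1, HC2, HC3, HK2 or HK3 (-0.69 to -0.47), with no slide term (-0.59), with slide as a random block (-0.61) and with the deposited values. A second SLC2A3 probe, with no shared stretch, gave -0.56 ± 0.28 and was not called.

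In the list of glutamate, GABA and monoamine signalling 2 of 7 genes were called, GLT-1, named as a glutamate transporter, as positive and SLC6A2, the noradrenaline transporter, as negative. Both were dim. GLT-1 was well above background on 6 of 16 arrays, and its call was lost without NC3, NK3, NK4, HC2, HC4, HK1, HK2 or HK3 (0.99 to 1.53), and it was 0.34 with normexp and 0.22 with the deposited values. No NC array had SLC6A2 well above background, so its size is not given. Without NC1, NC2, NC3, NK2, NK3, HC2, HC4, HC5, HK1, HK2 or HK3, or under another scaling, it was not called. GRIN1, which encodes the obligatory NMDA receptor subunit, was named after its values were seen, because ketamine blocks that receptor. It had a mean of -1.53 ± 0.26 (NC), -1.49 ± 0.21 (NK), -1.79 ± 0.79 (HC) and -2.34 ± 0.64 (HK). Its interaction was -0.52 ± 0.56 (SE), with no call. STAR, of mitochondrial cholesterol import, was the only called gene of 11 steroid and nuclear receptor genes. It was well above background on all 5 HC arrays, 2 HK arrays and no normoxic array, so its size is not given either, and the call was lost without NC1, NC2, NK3, HC1 or HK3 and under each other scaling. A second STAR probe that shares 59 of 60 bases was not called.

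No gene was called among 13 hypothalamic peptides and receptors (median -0.22), 10 of the insulin-like growth factor axis (-0.08), 11 lectin, selectin and adhesion genes (-0.22), 5 anterior pituitary genes (-0.25), 5 immediate early genes (-0.39), 3 genes of neurons, astrocytes and oligodendrocytes (0.05), 2 of the choroid plexus (-0.51), 2 of the major histocompatibility complex (0.01) and the blood gene HBB (-0.65). Of 12 endothelium and barrier genes EDNRA was the 1 called, with a list median of -0.23.

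**Figure D5:**
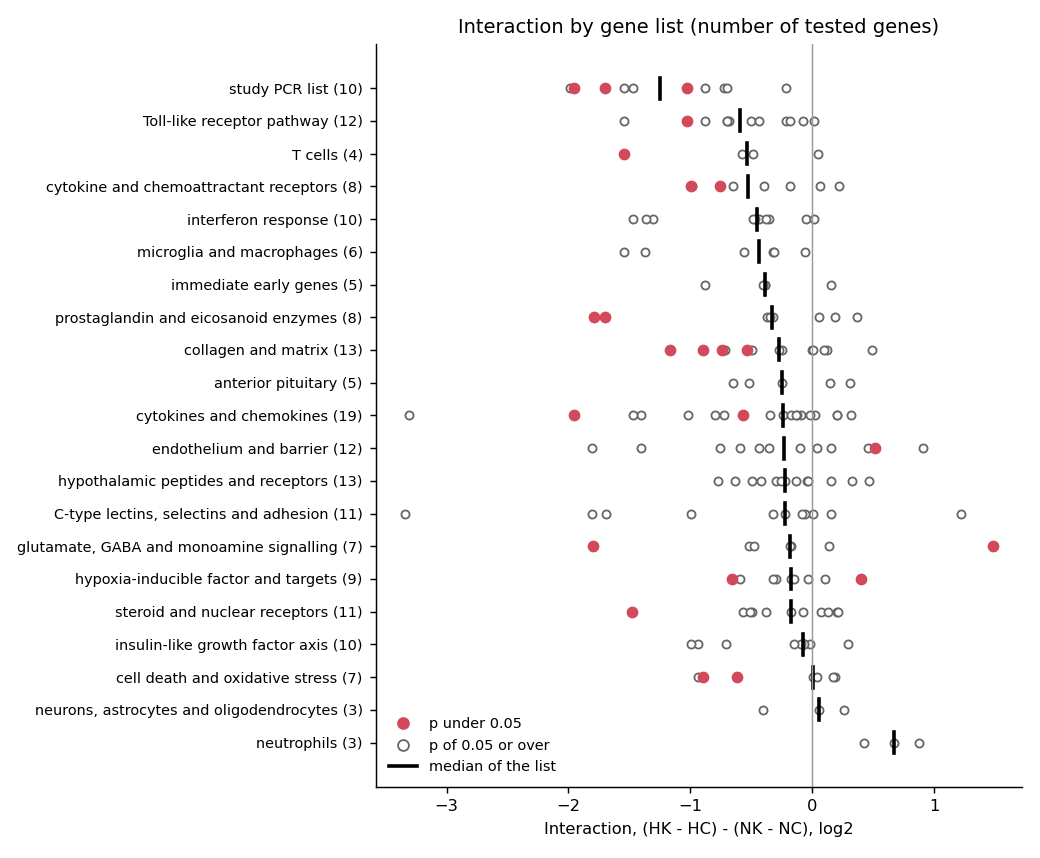
Fitted interaction (x axis, log2) of every tested gene in the lists with at least 3 such genes (y axis, number in parentheses), with called genes filled and the list median as a bar. Points include dim genes with a group at background, whose sizes are not measured, and the PCR list and Toll-like receptor pathway have the lowest medians, at -1.25 and -0.59.

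Markers of other cells were summed by array. The 6 tested microglia and macrophage genes all had a negative interaction with no call (median -0.44). Their summed linear signal, in units of the array's 75th percentile, was 3.35 to 4.29 in NC, 3.50 to 4.06 in NK, 2.99 to 10.2 in HC and 3.01 to 4.95 in HK, with the highest value in HC2. The sum weighs bright genes most. CTSS and ITGB2 were the brightest, with NC means of 1.41 and -0.19 against -2.84 for CD14, the next. CYBB, the phagocyte oxidase subunit, was well above background on no NC and no HK array. Of 4 T-cell genes CD3D was called, at -1.55 ± 0.66 (SE), with 1 of 3 NC, 2 of 4 NK, 5 of 5 HC and 3 of 4 HK arrays well above background. Its call was lost without NC1, NC2, NK2, NK4, HC2, HC5 or HK3 (-1.56 to -1.28) and under each other scaling, where it ranged from -1.34 (quantile) to -0.17 (deposited values). A second CD3D probe gave -1.46 ± 0.90 with no call. The summed T-cell signal was 0.158 to 0.228 in NC, 0.180 to 0.250 in NK, 0.264 to 0.451 in HC and 0.153 to 0.440 in HK. The 3 neutrophil genes LTF, CATHL3 and BAC5 were positive with no call (median 0.68). Their sum was at most 0.933 in NC and 0.891 in NK, 0.685 to 6.78 in HC, and 0.505 and 0.362 in HK1 and HK3 against 14.6 and 13.1 in HK2 and HK4. In the PCR list HK2 was the highest HK array for TNF, PTGS2, CXCL10, TLR4 and MYD88. HK1 was the highest for CD14, NFKBIA and PTX3, and HK4 for IL1B and TLR2. TNF in HK4 was low, at -5.43. The part of these cells in the results was not tested.

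Each slide held all 4 groups, so the interaction was also fitted within slides, with 8 arrays on each. Slide 1 gave 284 calls and slide 2, where NC had 1 array and was assumed to vary like the other groups, gave 591. Over 12242 probes the interactions of both slides had a Pearson r of 0.169 and a Spearman rho of 0.236 and the same sign in 59.6%, values across probes that are not independent. The sign was the same in 99.4% of called probes. These were chosen by the fit of both slides together, so like values on the slides are not a replication. Among the genes above, close values came, for example, from CREM, at -1.19 on slide 1 and -1.29 on slide 2, and from DCN, at -0.87 and -0.93. The same held for IGFR1, at -0.51 and -0.52, and for PPCS, at 0.31 and 0.33. Slide 2 was further from 0 for FGF2 (-0.71 and -1.30), COL4A3 (-0.89 and -1.42), ETS2 (-0.51 and -1.06) and PTGER4 (-0.83 and -2.37). Slide 1 was further from 0 for CD3D (-2.29 and -0.70), SLC2A3 (-0.86 and -0.43), IL1B (-1.13 and -0.38), C5aR (-0.91 and -0.68) and SLC25A26 (0.47 and 0.22). The number of calls was lowest, at 330, without HK3 and highest, at 745, without HC2.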

How the data were processed

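Each of the 16 fetal hypothalami gave 1 RNA sample, read in 1 color on an Agilent sheep array. Per the file headers, the deposited intensity values are background-subtracted, spatially detrended signals of the Feature Extraction software, and the authors had not normalized them between arrays. The authors also deposited log2 values for the same arrays, by a method not given in the sources used here. These were used as an alternative.

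Control spots (536 of 15744) and outlier spots (0.0801%) were left out and saturated spots kept. Signals were put on the log2 scale, the array's 75th percentile was subtracted and spots of a probe were averaged. Probes that 3 or more arrays measured well above background (12250 of 15008) were fitted in R 4.3.3 with limma 3.58.1 (4 groups, slide as a fixed block, empirical Bayes, 11 residual and 12.81 total degrees of freedom), with two-sided tests called at an unadjusted p under 0.05, as in the study, and after Benjamini-Hochberg adjustment. Group means and SDs are of the arrays, and differences and SEs are of the fit. The number of arrays limits the precision. The procedure was tested on simulated data.

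Gene names came from the array files, or through RefSeq accessions from a table of sheep RefSeq genes (726 of 750 accessions matched). In all 1656 probes had 1 of 1035 names, which can be old, and the files name no genome build. Probe sequences came from the array files. The named genes are the 12 of smallest p in each direction, by the probe of smallest p, those the study followed by PCR and the called genes of hand-written lists, by the brightest probe, and GRIN1. Some genes are not reported here and are left out of the lists. The contrast, the members and the lists were chosen with earlier results of these data known. Alternatives were other block terms, 3 other scalings, other filters, array weights, each slide alone, each array left out, other probes and 1 probe per gene.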

Additional observations from a re-analysis of the deposited data

Results flagged for a closer look

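Among 126 groups of 4 or 5 arrays examined over the named genes, 6 held an array whose gap to the nearest other array was large for the range of its group, where chance gives about 1 in 20. TNF was high in HK2, at -3.17 against -5.66 to -5.43 in the other HK arrays, and low in NK4, at -5.65 against -4.69 to -4.57. TLR4 was high in HK2, at -4.62 against -4.92 to -4.90. NFKBIA was high in NK3, at 1.05 against 0.60 to 0.66. PTGER4 was low in NK3, at -5.51 against -4.42 to -4.29. CD3D was low in HK1, at -7.68 against -5.41 to -5.13. The TNF and CD3D calls each involve a group at the edge of detection in some arrays.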

How the results depend on the processing

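The count of calls was 456 without a slide term, 486 with slide as a random block, 465 with quantile normalization, 450 with normexp, 485 with the deposited values, 559 of 15008 probes with no filter, 424 of 10032 well above background on all 16 arrays and 740 with array weights. It was 284 with slide 1 alone and 46 of 875 with 1 probe per gene name, a setting that tests far fewer probes. Leaving out 1 array gave 330 to 745. After adjustment 0 probes passed in all settings but slide 2 alone, with 1. The labels' replicate numbers fall within slides. Correlations between same-numbered arrays ran from -0.0578 to 0.346 after centring on groups and from -0.216 to 0.0935 after centring on slides too, so not every pair passed 0.1 and the numbers were not taken to pair the samples. The replicate block in place of slide gave 554 calls.

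For the PCR list, the 3 called genes became 1 without a slide term, 6 with the replicate block (CD14 at -1.86, NFKBIA at -1.09 and PTX3 at -2.12 being added), 1 with quantile normalization, 0 with normexp, 0 with the deposited values, 0 with slide 2 alone and 1 with the second probe of genes that have 1. Leaving out 1 array gave 0 to 6. Leaving out HC1 and HC4 together, chosen after seeing the data, gave 1, with 562 probes called. The list median was -0.71 with the deposited values. MYD88 was 0.0598 on slide 2 alone, and PTGS2 was 0.0247 on its other probe (A_70_P039257). The cause of these moves was not tested. Over the alternatives for the genes named, 926 values kept their direction and side of the threshold, 246 lost the call, 13 gained it and those 2 changed sign.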
